A study of Saccharomyces cerevisiae with 21 samples.

Results

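The genes described here encode the protein factors that start, extend and end translation in the cytosol of budding yeast. They were chosen as a list of 35 named genes, of which 31 had a probe set annotated to them alone among the 5656 genes measured in this way. TIF1 and TIF2, which both encode the RNA helicase eIF4A, shared a probe set, and so did EFT1 and EFT2, which both encode the elongation factor eEF2, so these 4 genes have no value of their own. Saccharomyces cerevisiae was sampled 7 times during a wine fermentation of 15 days, and total RNA was hybridised to 21 one-colour arrays, with 3 biological replicates per time. The groups were 1, 12, 24, 48, 60, 120 and 340 h. The last 5 of these form the main study, for which the submitters give approximate ethanol contents that grow with time: the 24 h samples had 0.5%, those of 48 h 2%, those of 60 h 3.5%, those of 120 h 7% and those of 340 h 10%. Time and ethanol moved together and cannot be told apart, and the strain and the must are not given in the sources used here. All values below are log2 probe set summaries, and each change is the later time minus the earlier time with its standard error.

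In translation initiation, eIF4E binds the cap of an mRNA, eIF4G bridges it to the helicase eIF4A and to the poly(A)-binding protein, and the small ribosomal subunit arrives carrying eIF3, eIF1, eIF1A and the ternary complex of eIF2, GTP and initiator tRNA. eIF2B recharges eIF2 with GTP and is inhibited when the kinase Gcn2 phosphorylates eIF2 in starved cells. eEF1A and its exchange factor eEF1B bring aminoacyl-tRNA to the ribosome, eEF2 moves the ribosome along, fungi need eEF3 as well, and eRF1 with eRF3 ends synthesis at a stop codon. Many of these genes are known to be expressed along with ribosomal protein genes in fast growth and to be repressed in the general stress response of yeast.

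The 21 arrays had medians between 6.62 and 6.90, and the precision is limited by 3 arrays per time. The array of 24 h replicate 3 stood apart, with a mean correlation of 0.960 with the other 24 h arrays. Its 18S ribosomal RNA control averaged 9.33, against 6.36 and 6.49 on the other two. The 340 h arrays also differed in their controls: 18S read 10.1 to 12.1, against 6.36 to 9.33 at 24 h, and the 3′ minus 5′ difference of SPT15 was 2.53 to 3.20, against 1.97 to 2.29 at 24 h. The part of these control values in the results at 340 h was not tested. The samples are whole cultures, so fewer cells with an mRNA and less of it per cell cannot be told apart.

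**Figure D1:**
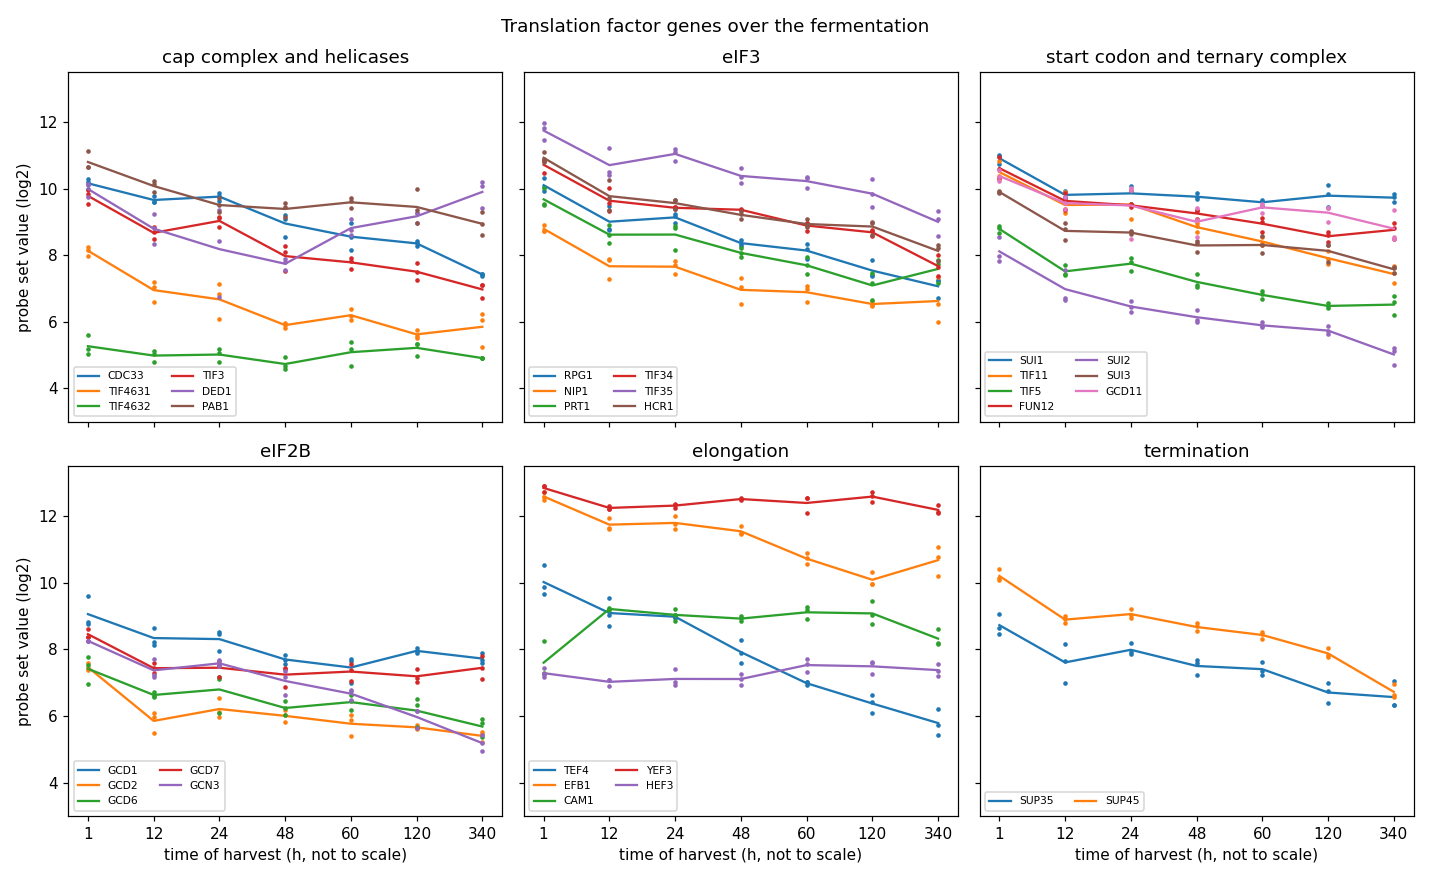
Log2 value of each of the 31 translation factor genes (y axis) at 7 times of harvest (x axis, in hours and not to scale), in 6 panels by role. Lines join the means of 3 arrays and points are single arrays; 29 of the 31 genes had their highest mean at 1 h, and 18 had their lowest at 340 h. The shares of all genes with their highest or lowest mean at these times were not counted. Levels of different genes cannot be compared.

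Almost the whole set was highest on the 1 h arrays. The mean was highest at 1 h for 29 of 31 genes, at 12 h for CAM1 and at 60 h for HEF3. It was lowest at 340 h for 18 genes and at 120 h for another 7. How many of all genes had their highest or lowest mean at these times was not counted. Between 12 h and 1 h, 28 of 31 genes fell and 1 rose, where 33.9% of all genes fell and 26% rose (limma, adjusted p under 0.05 over 5656 genes). Of these 29 calls, 23 held in all 6 fits with 1 array left out. The exceptions were CDC33, DED1, PAB1, GCD11, GCD1 and GCD6. A second TEF4 probe set did not pass at this step (-0.48, limma adjusted p = 0.183). The median change of the 31 genes was -1.04, and that of all genes was -0.11. Centring the arrays on 5 reference genes left 27 falls and 1 rise in this comparison (35.5% and 14.9% of all genes). The genes that did not pass were TIF4632, with a change of -0.28, and HEF3, with a change of -0.26.

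The 24 h and 12 h arrays gave 0 calls among the 31 genes with limma, while 1.27% of all genes fell and 0.796% rose. At an unadjusted p under 0.05, 2 of the 31 would count, namely PAB1 (-0.57) and SUI2 (-0.52), with a lowest adjusted p of 0.193. The median change was 0.02, and with reference-gene centring 0 of the 31 genes and 0% of all genes passed.

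After 24 h the falls accumulated on the deposited scale. At 48 h against 24 h, 9 of 31 genes fell and 0 rose (8.42% and 12.8% of all genes), and 15 of the 31 had an unadjusted p under 0.05. EFB1 did not pass at this time (-0.25, limma adjusted p = 0.410), but a second EFB1 probe set fell (-0.56, adjusted p = 0.0469). Without 24 h replicate 1 or 2, or 48 h replicate 1 or 2, 4 or 5 genes fell at 48 h. At 60 h, 18 fell and 0 rose (20.8% and 22.6% of all genes), and at 120 h, 20 fell and 0 rose (26.6% of all genes in each direction). At 340 h, 24 fell and 1 rose, where 36% of all genes fell and 27.8% rose. The median changes against 24 h were -0.44, -0.57, -0.74 and -1.10 at 48, 60, 120 and 340 h, and those of all genes were -0.02, 0.01, 0.01 and -0.13. These 4 comparisons share the 24 h arrays and are not independent. Without 24 h replicate 3, the array that stood apart, 12, 21, 24 and 26 of the 31 genes passed at 48, 60, 120 and 340 h. All of these were falls except HEF3 at 60 and 120 h and DED1 at 340 h, which rose. The shares of all genes in the fits with 1 array left out are not given here.

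How many of these genes fell late in the fermentation depended on the scale. Centring on the reference genes ALG9, TAF10, TFC1, UBC6 and KRE11 (TRS65 in the annotation) moved the median of all genes by 0.51 at 120 h and 1.05 at 340 h against 24 h. On that scale 0 of the 31 genes rose and 3 fell at 48 h against 24 h (3.48% and 3.54% of all genes), and 0 rose and 9 fell at 60 h (15.4% and 7.5% of all genes). At 120 h, 4 rose and 12 fell (38% and 7.96% of all genes), and at 340 h, 6 rose and 8 fell (58.7% and 7.04% of all genes). The medians of the 31 genes against 24 h were then -0.55, -0.46, -0.22 and -0.05 at 48, 60, 120 and 340 h. Those of all genes were -0.13, 0.11, 0.52 and 0.93. So the median of the 31 genes shrank with time on that scale, while on the deposited scale it grew more negative. The 5 reference genes themselves had a median change of -0.60 on the deposited scale at 340 h against 24 h. At 48 h against 24 h, 3 genes fell with centring and 9 without it. Yet the median was more negative with centring, at -0.55 in place of -0.44. The reference gene median of single arrays ran from 7.71 to 8.38 at 24 h and from 6.75 to 7.41 at 340 h. This spread enters every centred value, and its part in the counts was not tested. A call lost with centring therefore does not by itself show a smaller change.

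**Figure D2:**
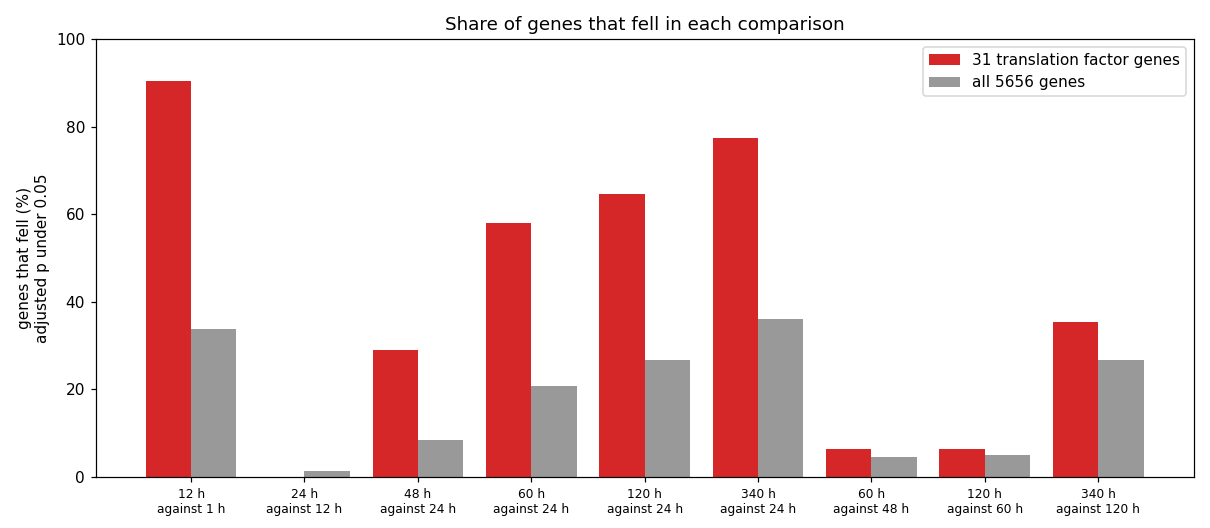
Share of genes that fell with a limma adjusted p under 0.05 (y axis, percent) in 9 comparisons (x axis), for the 31 translation factor genes (red) and all 5656 genes (grey). The share was 90.3% at 12 h against 1 h, 0% at 24 h against 12 h and 77.4% at 340 h against 24 h on the deposited scale; with reference-gene centring 8 of the 31 genes fell at 340 h and 6 rose.

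Steps between neighbouring times were small in the middle of the fermentation. TEF4 and EFB1 were the 2 of 31 genes that fell at 60 h against 48 h, and 0 rose (4.6% and 3.48% of all genes). TEF4 lost its call without 48 h replicate 2 (adjusted p = 0.0659), and EFB1 lost it without 48 h replicate 3 (0.0822) or 60 h replicate 1 (0.0882), all by limma. Their second probe sets did not pass at this step, with changes of 0.23 for TEF4 (adjusted p = 0.673) and -0.42 for EFB1 (adjusted p = 0.199), so these 2 calls rest on 1 probe set each. GCN3 and SUP45 were the 2 that fell at 120 h against 60 h, and 0 rose (4.95% and 4.6% of all genes). The second EFB1 probe set fell at 120 h against 60 h (-0.85, limma adjusted p = 0.00904). The first, used in the counts, did not pass there (-0.64, adjusted p = 0.0551). For that step the same-numbered arrays deviate together, and with the replicate number as a block 6 genes fell, the additional ones being RPG1, PRT1, EFB1 and SUP35. The share of all genes that passed with the block is not given here, so the added calls cannot be set against it. Leaving out any 1 of the 6 arrays gave between 0 and 3 calls without the block. With reference-gene centring, 0 of the 31 genes passed by limma in either of these steps. Of all genes, 1.96% rose and 0.212% fell at 60 h against 48 h on that scale, and 5.25% rose and 0.283% fell at 120 h against 60 h.

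At 340 h against 120 h, 11 of 31 genes fell and 1 rose, where 26.6% of all genes fell and 15.9% rose. Of these 12 calls, 8 held in all 6 fits with 1 array left out, the exceptions being TIF3, SUI3, TEF4 and EFB1. A second TEF4 probe set did not pass at this step (-0.27, limma adjusted p = 0.457). The median change was -0.47, against -0.17 for all genes. These arrays also pair by number, and the block gave 15 falls and 2 rises, adding RPG1, TIF11, GCD6 and YEF3 as falls and PRT1 as a rise. Here too the share of all genes with the block is not given. With reference-gene centring 0 fell and 5 rose (2.62% and 22.7% of all genes), so the count in each direction depended on the scale. All 5 were already positive on the deposited scale, and of the genes called there only TIF3 changed sign. The median of the 31 genes was 0.07 with reference-gene centring.

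The cap complex and its helicases had 6 genes with a value. At 340 h against 24 h, 4 fell, 1 rose and 1 did not pass, where 36% of all genes fell and 27.8% rose. The median of the 6 was -0.69. CDC33 encodes eIF4E, the protein that binds the cap. It read 7.43, 7.44 and 7.38 at 340 h, against 9.62, 9.77 and 9.88 at 24 h. The groups lay far apart, and the 340 h arrays were close to each other. CDC33 fell by 2.34 ± 0.20 (limma adjusted p = 1.68e-08), a 5.05-fold decrease, after falls of 0.81 at 48 h, 1.20 at 60 h and 1.40 at 120 h against 24 h. The first of these did not pass without 48 h replicate 2 (-0.60, adjusted p = 0.0552). Centred on the reference genes, it was still lower at 340 h (-1.29, adjusted p = 0.00346). TIF3, which encodes eIF4B, a stimulator of the helicase eIF4A, read 7.12, 7.09 and 6.71 at 340 h, against 8.83, 9.14 and 9.11 at 24 h. It fell by 2.06 ± 0.20 at 340 h, and had already fallen by 1.06 at 48 h.

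TIF4631 and TIF4632 encode eIF4G, the scaffold between the cap and the small subunit. TIF4631 read 6.25, 5.26 and 6.05 at 340 h, against 6.82, 7.12 and 6.07 at 24 h. The third 24 h array lay within the 340 h range, so the groups overlapped. TIF4631 fell by 0.82 ± 0.25 (limma adjusted p = 0.00811), but not when 24 h replicate 2 (adjusted p = 0.0589) or 340 h replicate 2 (0.0670) was left out, and its change was 0.23 with reference-gene centring. TIF4632 read 4.92, 4.91 and 4.90 at 340 h, against 5.06, 5.18 and 4.81 at 24 h. It passed in none of the 9 comparisons on the deposited scale. Its mean over all arrays, 5.03, was the lowest of the 31 genes and under the filter at a mean of 6. The lack of calls therefore does not show that it stayed level. With reference-gene centring TIF4632 rose by 0.71 at 120 h (limma adjusted p = 0.0331) and by 0.95 at 340 h (adjusted p = 0.00404) against 24 h. PAB1, the poly(A)-binding protein gene, read 8.60, 8.93 and 9.29 at 340 h, against 9.71, 9.51 and 9.29 at 24 h. Its fall of 0.56 ± 0.23 was close to the threshold (limma adjusted p = 0.0428), was lost without replicate 1 or 2 of either time (adjusted p from 0.0839 to 0.190), and turned to 0.49 with reference-gene centring.

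DED1, which encodes a DEAD-box helicase that unwinds mRNA leaders during scanning, moved the other way. It read 10.19, 9.42 and 10.09 at 340 h, against 9.36, 8.43 and 6.75 at 24 h. Every 340 h array lay above the 24 h arrays, but the 24 h arrays spread over more than 2 units, with replicate 3 lowest. DED1 rose by 1.72 ± 0.41 (limma adjusted p = 0.00139), and by 1.00 ± 0.26 (adjusted p = 0.00314) without 24 h replicate 3. The lowest mean of the gene was 7.74 ± 0.16 at 48 h (SD, n = 3), and the means after it were 8.81 ± 0.25 at 60 h, 9.17 ± 0.19 at 120 h and 9.90 ± 0.42 at 340 h. That level was near the 1 h mean of 9.99 ± 0.22. Without 24 h replicate 3, the gene fell at 48 h against 24 h (-1.15, adjusted p = 0.00496), and its changes at 60 and 120 h were -0.08 and 0.27 in place of 0.63 and 0.99. Without 24 h replicate 1, in contrast, it rose at 60 h (1.22, adjusted p = 0.00917) and 120 h (1.57, adjusted p = 0.00107). The 24 h level of DED1 therefore depends on which arrays are kept.

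The 6 genes of eIF3, the large scaffold complex on the small subunit, all fell from 60 h on, against 24 h on the deposited scale. All 6 fell at 12 h against 1 h (33.9% of all genes), with changes from -1.15 to -1.04. At 48 h against 24 h, 2 of the 6 fell and 4 did not pass (8.42% of all genes fell). All 6 fell at 60 h, 120 h and 340 h against 24 h (20.8%, 26.6% and 36% of all genes), with medians of -0.79, -1.16 and -1.59. At 60 h, NIP1 lost its call without 24 h replicate 1 or 2 or 60 h replicate 3 (adjusted p from 0.0622 to 0.114), and TIF34 without 60 h replicate 1 (0.0579), both by limma. With reference-gene centring 2 of the 6 fell at 340 h, RPG1 and TIF35 (7.04% of all genes), and the median was -0.54.

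RPG1 encodes eIF3a, the subunit on which the complex is built. It read 7.25, 7.23 and 6.71 at 340 h, against 8.98, 9.25 and 9.17 at 24 h, and fell by 2.07 ± 0.19 (limma adjusted p = 3.54e-08). TIF35 encodes the RNA-binding subunit eIF3g and read 9.31, 8.59 and 9.10 at 340 h, against 11.19, 11.11 and 10.82 at 24 h, a fall of 2.04 ± 0.22. In both genes the groups did not overlap. TIF34, which encodes eIF3i, had a later course: it changed by -0.06 at 48 h against 24 h and had fallen by 1.75 ± 0.16 at 340 h, with a fall of 1.01 between 120 and 340 h. HCR1, for the loosely bound subunit eIF3j, fell by 1.43 ± 0.17 at 340 h.

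PRT1 and NIP1, for the subunits eIF3b and eIF3c, had their lowest means at 120 h, before the end. PRT1 read 7.86, 7.73 and 7.17 at 340 h, 7.46, 7.17 and 6.65 at 120 h, and 8.82, 8.88 and 8.16 at 24 h. The 340 h and 120 h arrays overlapped, and the difference of 0.50 between them passed with the replicate block (limma adjusted p = 0.0170) but not without it (0.105) on the deposited scale. NIP1 read 7.33, 6.54 and 5.996 at 340 h, 6.63, 6.50 and 6.47 at 120 h, and 7.72, 7.81 and 7.43 at 24 h. Its 340 h and 120 h arrays overlapped too. The difference of 0.09 between them did not pass (limma adjusted p = 0.811, and 0.741 with the block). Both genes fell by 1.03 at 340 h against 24 h on the deposited scale, and both changes were 0.02 with reference-gene centring.

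Of the 7 genes for start codon recognition and the ternary complex, 5 fell and 0 rose at 340 h against 24 h. Of all genes, 36% fell and 27.8% rose, and the median of the 7 was -1.10. All 7 had fallen at 12 h against 1 h (33.9% of all genes), with a median of -1.10. However, GCD11 lost that call without 1 h replicate 1 or 12 h replicate 2 or 3 (limma adjusted p from 0.0550 to 0.0827). With reference-gene centring 1 fell and 1 rose at 340 h, TIF11 and SUI1 (7.04% and 58.7% of all genes).

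TIF11 and SUI1 encode eIF1A and eIF1, which sit together on the small subunit and hold it open for scanning. TIF11 read 7.66, 7.16 and 7.47 at 340 h, against 9.09, 9.52 and 9.94 at 24 h, and fell by 2.09 ± 0.20 (limma adjusted p = 7.30e-08). SUI1 read 9.58, 9.75 and 9.84 at 340 h, against 9.54, 9.94 and 10.09 at 24 h. Its groups overlapped, and the change of -0.13 ± 0.18 did not pass (adjusted p = 0.563). SUI1 kept means between 9.59 and 9.85 from 12 to 340 h, after a mean of 10.91 at 1 h. On the scale of the reference genes SUI1 rose by 0.92 at 340 h (adjusted p = 0.0247).

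TIF5, the gene for the GTPase-activating factor eIF5, fell by 1.23 ± 0.18 at 340 h and had its lowest mean, 6.48, at 120 h. FUN12, for the subunit-joining GTPase eIF5B, fell by 0.74 ± 0.17, with its lowest mean, 8.57, at 120 h too. With reference-gene centring FUN12 changed by 0.32 at 340 h. Neither gene passed at 340 h against 120 h, with changes of 0.04 for TIF5 and 0.19 for FUN12 (limma adjusted p = 0.872 and 0.371). Of the genes for the 3 subunits of eIF2, 2 passed at 340 h. SUI2, for the alpha subunit that Gcn2 phosphorylates, read 4.71, 5.21 and 5.14 at 340 h, against 6.29, 6.63 and 6.45 at 24 h, and fell by 1.44 ± 0.17. SUI3, for the beta subunit, fell by 1.10 ± 0.18, with changes of -0.39, -0.37 and -0.55 at 48, 60 and 120 h. Of these the last passed, but not without 120 h replicate 2 (adjusted p = 0.0945).

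GCD11, for the GTP-binding gamma subunit of eIF2, did not pass at 340 h against 24 h (-0.69 ± 0.34, limma adjusted p = 0.0793). It read 9.35, 8.56 and 8.48 at 340 h, against 10.03, 9.96 and 8.48 at 24 h. The third 24 h array was level with the lower 340 h arrays. Without 24 h replicate 3, GCD11 fell by 1.20 ± 0.26 (adjusted p = 0.000769), and without 340 h replicate 1 it fell by 0.97 (adjusted p = 0.0261). Without 24 h replicate 3 it also fell at 48 h (-0.99, adjusted p = 0.0129) and 120 h (-0.72, adjusted p = 0.0302) against 24 h. A p above the threshold therefore does not show that GCD11 stayed level.

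Among the 5 genes of eIF2B, the exchange factor of eIF2, 4 fell and 0 rose at 340 h against 24 h. Of all genes, 36% fell and 27.8% rose, and the median of the 5 was -0.81. GCN3 encodes the alpha subunit, which is not essential for growth but is needed for inhibition by phosphorylated eIF2. It read 5.18, 5.41 and 4.95 at 340 h, against 7.69, 7.55 and 7.49 at 24 h. The groups were more than 2 units apart, and GCN3 fell by 2.40 ± 0.20 (limma adjusted p = 1.63e-08), a 5.26-fold decrease. The fall was spread over time, with -0.91 at 60 h and -1.61 at 120 h against 24 h, and GCN3 was lower with reference-gene centring too (-1.34, adjusted p = 0.000140).

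The other eIF2B subunits moved less. GCD6, for the catalytic epsilon subunit, read 5.78, 5.90 and 5.36 at 340 h, against 7.12, 7.17 and 6.09 at 24 h, a fall of 1.11 ± 0.27. GCD2, for the delta subunit, fell by 0.81 ± 0.19, and GCD1, for the gamma subunit, fell by 0.58 ± 0.20. GCD1 did not pass without 24 h replicate 1 or 2 or 340 h replicate 1 (adjusted p from 0.0554 to 0.0750). With reference-gene centring the changes of GCD1, GCD2 and GCD6 were 0.47, 0.25 and -0.06. Of the 5 eIF2B genes, 1 fell and 1 rose at 340 h on that scale (7.04% and 58.7% of all genes).

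GCD7, for the beta subunit, read 7.44, 7.80 and 7.10 at 340 h, against 7.65, 7.53 and 7.17 at 24 h. The groups overlapped, and its change of 0.00 ± 0.22 did not pass on the deposited scale. With reference-gene centring GCD7 was higher by 1.05 (adjusted p = 0.00212). GCD7 had fallen by 1.02 at 12 h against 1 h.

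Of the elongation factor genes, 3 of 5 fell at 340 h against 24 h and 0 rose (36% and 27.8% of all genes). The changes of the 5 ran from -3.19 to 0.26. With reference-gene centring 1 of the 5 fell and 2 rose (7.04% and 58.7% of all genes). TEF4 and CAM1 both encode the gamma subunit of eEF1B, and EFB1 encodes its catalytic alpha subunit. TEF4 read 5.42, 6.20 and 5.74 at 340 h, against 9.02, 8.95 and 8.96 at 24 h. All 3 late arrays lay more than 2 units below the 24 h arrays, and TEF4 fell by 3.19 ± 0.21 (limma adjusted p = 6.02e-10), a 9.13-fold decrease and rank 29 among all genes ordered from the most negative change. The changes at 48, 60 and 120 h against 24 h were -1.06, -1.99 and -2.60. A second TEF4 probe set changed by -2.33 ± 0.28 at 340 h, and TEF4 was also lower with reference-gene centring (-2.14, adjusted p = 1.48e-05).

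CAM1 had a course of its own. It read 9.21, 9.19 and 9.23 at 12 h, against 7.28, 7.27 and 8.25 at 1 h, and was the 1 gene of the 31 that rose in that comparison (1.61 ± 0.22, limma adjusted p = 1.68e-06). From 12 to 120 h its means lay between 8.92 and 9.21. It read 8.17, 8.17 and 8.61 at 340 h, against 8.85, 9.04 and 9.21 at 24 h, and fell by 0.71 ± 0.19, with a change of 0.34 under reference-gene centring.

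EFB1 fell to its lowest mean at 120 h and was higher at the end. It read 10.21, 11.06 and 10.76 at 340 h, 9.96, 9.97 and 10.32 at 120 h, and 11.60, 11.77 and 12.01 at 24 h. Although the 340 h and 120 h arrays overlapped by 1 array each, EFB1 rose by 0.59 ± 0.20 between them (limma adjusted p = 0.0256). A second EFB1 probe set rose by 0.66 ± 0.19 (adjusted p = 0.0103) in the same comparison. On the first probe set the rise lost its call without 120 h replicate 1 or 2 or 340 h replicate 2 or 3 (adjusted p from 0.0741 to 0.133). Against 24 h, EFB1 fell by 1.12 ± 0.20 at 340 h, but changed by -0.06 with reference-gene centring (limma adjusted p = 0.888).

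YEF3 and HEF3 encode eEF3, the ATPase that fungal ribosomes need in each elongation cycle. YEF3 read 12.33, 12.12 and 12.09 at 340 h, against 12.24, 12.34 and 12.35 at 24 h, and its means stayed between 12.18 and 12.58 from 12 h on. Its one call on the deposited scale, with all arrays and without a block, was a fall of 0.60 ± 0.15 at 12 h against 1 h. At 340 h against 120 h the change of YEF3 was just over the threshold (-0.40, limma adjusted p = 0.0512). That change passed without 120 h replicate 2 (-0.48, adjusted p = 0.0484) or 340 h replicate 1 (-0.48, adjusted p = 0.0460). HEF3 read 7.20, 7.56 and 7.36 at 340 h, against 7.01, 6.92 and 7.40 at 24 h, and passed in none of the 9 comparisons on the deposited scale. Its means ran from 7.02 at 12 h to 7.53 at 60 h, and without 24 h replicate 3 the differences at 60 h (0.56, limma adjusted p = 0.0194) and 120 h (0.52, adjusted p = 0.0211) against 24 h passed. The difference at 120 h also passed without 120 h replicate 1 (0.49, adjusted p = 0.0440). With reference-gene centring YEF3 and HEF3 were higher by 0.78 and 0.89 at 120 h and by 0.92 and 1.32 at 340 h against 24 h. Probe sets of such similar genes can pick up each other's RNA, which was not tested here.

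Both termination factor genes fell at 340 h against 24 h, where 36% of all genes fell. SUP45 encodes eRF1, which recognises the stop codons. It read 6.95, 6.58 and 6.64 at 340 h, 7.83, 8.02 and 7.77 at 120 h, and 8.94, 9.21 and 9.02 at 24 h. None of these groups overlapped, and SUP45 fell by 2.33 ± 0.16 at 340 h against 24 h (limma adjusted p = 7.96e-10) and by 1.15 ± 0.16 at 340 h against 120 h (adjusted p = 2.00e-05). SUP35, for the GTPase eRF3, which can also form the yeast prion [PSI+], read 7.06, 6.31 and 6.32 at 340 h, against 8.18, 7.92 and 7.85 at 24 h. SUP35 fell by 1.42 ± 0.22, and most of that difference was already there at 120 h (-1.28 against 24 h). With reference-gene centring SUP45 was lower by 1.28 (adjusted p = 0.000296), while SUP35 changed by -0.37 (adjusted p = 0.217).

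**Figure D3:**
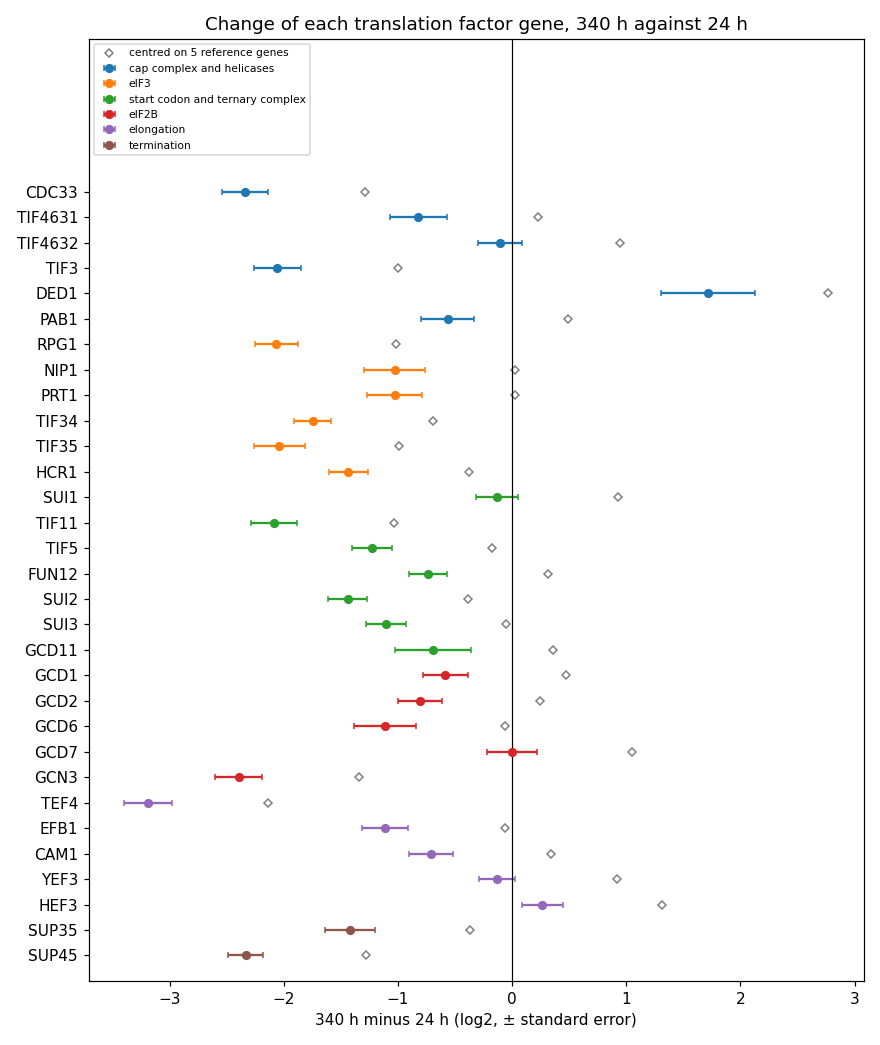
Change of each of the 31 genes at 340 h against 24 h (x axis, log2, with the standard error of the limma fit as bars), coloured by role. Grey diamonds give the same change with arrays centred on 5 reference genes, which shifts the genes up by 1.05; DED1 at 1.72 and TEF4 at -3.19 lie at the 2 ends, and TIF4631, PAB1, FUN12, GCD1, GCD2 and CAM1 are among the genes whose direction turns.

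The moderated F test over the 5 main times passed for 24 of 31 genes, close to the 73.8% of all genes. TIF4632, PAB1, SUI1, GCD11, GCD7, YEF3 and HEF3 did not pass. Over all 7 times it passed for 30 of 31, again close to the 89.2% of all genes, with TIF4632 as the exception.

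Several factors are encoded by a pair of similar genes, and the design allowed a test of unequal change within 5 of 8 listed pairs, by an exact permutation test, two-sided, of the difference between the paralogues on each array. With 3 arrays against 3, the smallest p is 0.1, so no pair could pass. CAM1 changed by 2.07 more than TEF4 at 60 h and by 2.48 more at 340 h against 24 h (exact permutation p = 0.1 each, adjusted over 5 pairs 0.167 and 0.25). All 3 arrays of the later time lay above the 24 h arrays in both comparisons. Averaging TEF4's probe sets gave differences of 1.70 and 2.05.

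ANB1 and HYP2 encode eIF5A, which helps the ribosome through difficult peptide bonds. ANB1 is known as the form made when oxygen is scarce and HYP2 as the form of aerated cells. ANB1 read 12.50, 12.44 and 12.42 at 12 h, against 8.91, 8.91 and 9.51 at 1 h, and rose by 3.34 ± 0.21 (limma adjusted p = 9.00e-12). HYP2 changed by -0.44 in the same comparison (limma adjusted p = 0.0368), and by between -0.70 and -0.31 when 1 array was left out. It lost its call without 1 h replicate 1 or 2 or 12 h replicate 2 or 3 (adjusted p from 0.0645 to 0.195), and with reference-gene centring (-0.68, adjusted p = 0.0557). ANB1 then fell by 1.77 ± 0.22 at 60 h against 24 h, while HYP2 rose by 0.57 ± 0.15, a difference of changes of -2.34 with no overlap between arrays (exact permutation p = 0.1). At 340 h against 24 h both had fallen on the deposited scale, by 1.69 and 0.72, and HYP2 changed by 0.33 with reference-gene centring.

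DBP1, a helicase gene similar to DED1, rose by 1.55 ± 0.35 at 60 h and by 1.74 ± 0.35 at 340 h against 24 h. Its 24 h arrays read 5.40, 5.16 and 3.50, with replicate 3 lowest as for DED1. Without that array the rises were 0.96 and 1.14. The changes of DBP1 and DED1 differed by 0.92 at 60 h (exact permutation p = 0.1) and by 0.02 at 340 h (exact permutation p = 0.8). TIF4632 changed by 0.55 and 0.72 more than TIF4631 at 60 h and 340 h (exact permutation p = 0.2 each), and HEF3 by 0.34 and 0.39 more than YEF3 (exact permutation p = 0.4 and 0.2), with overlapping arrays in both pairs.

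**Figure D4:**
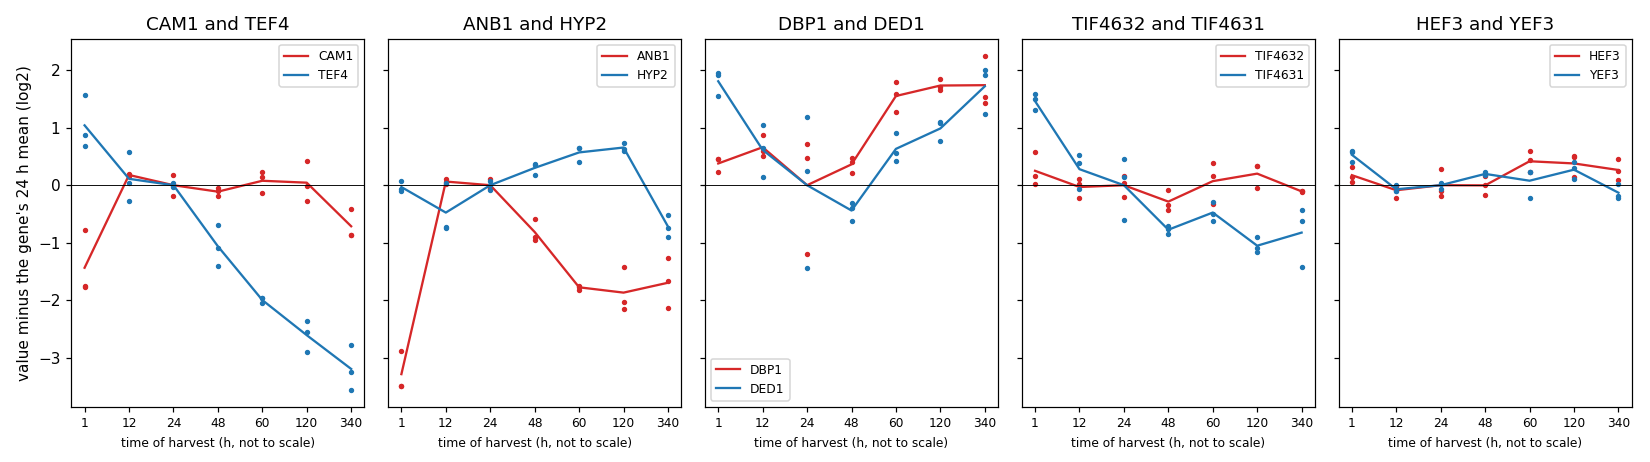
Log2 value minus the gene's own 24 h mean (y axis) at 7 times (x axis, in hours and not to scale) for 5 pairs of similar genes; lines join means of 3 arrays and points are arrays. CAM1 starts below its 24 h mean at 1 h and lies near it from 12 to 120 h, TEF4 ends at -3.19, ANB1 climbs between 1 and 12 h, and 24 h replicate 3 is the low point of DBP1 and DED1. On the scale of the reference genes HYP2, CAM1, TIF4631, TIF4632 and YEF3 end above their 24 h mean.

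Other genes of translation were counted in 6 further lists, all at 340 h against 24 h, where 36% of all genes fell and 27.8% rose. The 4 genes of eIF5A and its hypusine modification all fell (median -1.78): LIA1 and DYS1, for the enzymes that make hypusine, fell by 2.29 ± 0.19 and 1.86 ± 0.20, beside ANB1 and HYP2. Of 6 genes for the diphthamide modification of eEF2, 4 fell and 0 rose (median -1.02), with falls of 1.53 for RRT2, 1.41 for DPH5, 1.11 for DPH6 and 0.93 for DPH1. Among 8 genes of the Gcn2 pathway, 4 fell and 1 rose (36% and 27.8% of all genes), with a median of -0.35. GCN20 and GCN1, which act with Gcn2 on the ribosome, fell by 1.65 and 1.06, and GCD10 and GCD14, for the methyltransferase of initiator tRNA, by 1.53 and 0.72. The gene that rose was GCN2 itself, by 0.55 (adjusted p = 0.00704), named after its value was seen.

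Of 9 partners of the cap and the poly(A) tail, 5 fell and 2 rose (36% and 27.8% of all genes), with a median of -0.77. STM1, for a protein that clamps idle ribosomes, read 7.63, 7.82 and 7.81 at 340 h, against 10.88, 11.09 and 11.33 at 24 h, and fell by 3.35 ± 0.17 (limma adjusted p = 2.65e-11). SRO9, for an RNA-binding protein, fell by 2.02, and CAF20, for a protein that competes with eIF4G for eIF4E, fell by 1.61. The 2 rises were DBP1 and DHH1, an activator of decapping (1.57), and the remaining 2 falls were PUB1 (-1.16) and EAP1 (-0.77); these last 3 were named after their values were seen. EAP1 lost its call without 24 h replicate 1 or 2 or 340 h replicate 3 (limma adjusted p from 0.0588 to 0.0679), and changed by 0.29 with reference-gene centring.

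Of 12 genes for ribosome recycling and rescue, 7 fell and 0 rose (36% and 27.8% of all genes), with a median of -0.80. Of the recycling factor genes, TMA20 changed by -2.85 ± 0.20 and RLI1 by -2.55 ± 0.27. NEW1, for an ATPase similar to eEF3, changed by -2.05, and TMA19, for a ribosome-associated protein, by -1.83, and all 4 passed. TMA19 had not passed at 60 h (0.28). Of 9 factors of mitochondrial translation, 3 rose and 1 fell (median 0.20), and the share that rose was near the 27.8% of all genes. IFM1, the mitochondrial initiation factor gene, rose by 1.58 ± 0.25, MEF1 by 0.88 and MEF2 by 0.65, while MRF1, for the mitochondrial release factor, fell by 1.05.

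With reference-gene centring the numbers that rose and fell at 340 h against 24 h were 0 and 1 for eIF5A, 1 and 0 for diphthamide, 4 and 0 for the Gcn2 pathway, 4 and 2 for the partners, 5 and 4 for recycling and 8 and 0 for the mitochondrial factors. On that scale 58.7% of all genes rose and 7.04% fell. The medians of 4 lists turned above 0, that of eIF5A stayed below 0 at -0.72, and that of the mitochondrial factors stayed above 0 at 1.25.

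**Figure D5:**
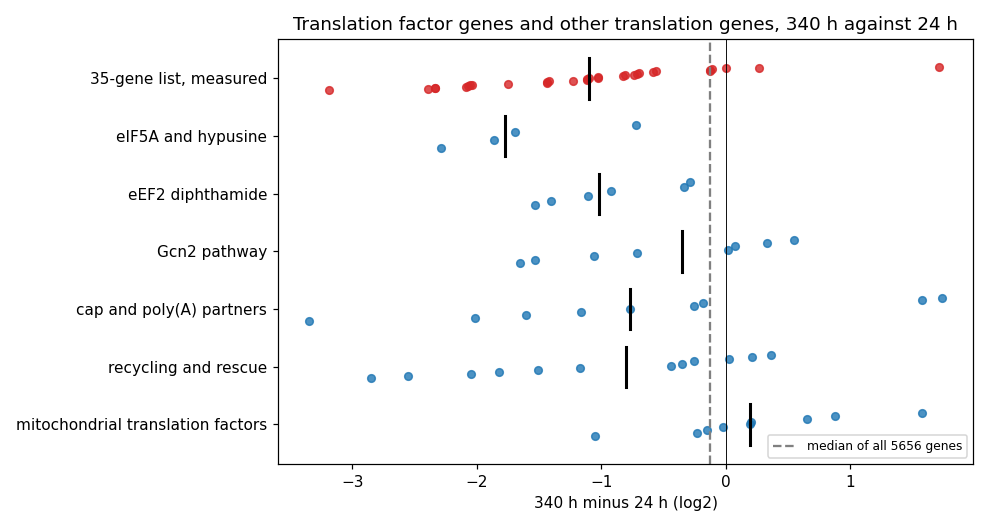
Change at 340 h against 24 h (x axis, log2) of the 31 measured translation factor genes (red) and of 6 lists of other translation genes (blue), 1 point per gene, with a black bar at each median and a dashed line at the median of all genes, -0.13. Medians run from -1.78 for eIF5A and hypusine to 0.20 for mitochondrial factors; reference-gene centring moves every point up by 1.05, which turns 4 of the 6 blue medians above 0 and leaves those of the 31 genes and of eIF5A and hypusine at -0.05 and -0.72.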

How the data were processed

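RNA from 21 arrays, 3 per time, was analysed from the authors' deposited table of log2 probe set values. Per the submitters' processing notes the tools were RMA and affy; versions, parameters and which arrays were normalized together are not given in the sources used here. RMA gives arrays one distribution, so a change of total mRNA cannot be seen.

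Of 9335 probe sets, 60 controls, 2443 without a gene in the platform annotation and 328 with several genes were left out. For each of 5656 genes, the probe set with the highest mean over all arrays was used. Group means were modelled in R 4.3.3 by limma 3.58.1 (default eBayes), on the 15 arrays of 24 to 340 h, or on all 21 for 12 h against 1 h and 24 h against 12 h. Tests were two-sided, with Benjamini-Hochberg adjustment over 5656 genes and a threshold of 0.05. The fit was tested on simulated data. Paralogue pairs were compared by exact permutation.

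The members and lists were chosen with earlier results of these data known. All members were open to naming, and of each other list the 4 genes with the largest changes at 340 h. DPH3 and SGN1 had no probe set of their own. Alternatives were the mean of probe sets, a filter at a mean of 6, centring on medians or on 5 reference genes, trend and robust variances, other sets of arrays, the replicate number as a block and leaving out 1 array. Replicate numbers paired the arrays by their deviations from group means for 120 h against 60 h (lowest correlation 0.164) and 340 h against 120 h (0.153) but for no other comparison. No sequences or coordinates were used here, and the planned counts of promoter motifs were not made.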

Additional observations from a re-analysis of the deposited data

How the results depend on the processing

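Of 279 gene-by-comparison results for the 31 genes, 117 passed the threshold. A result was called reversed where its sign changed and it passed on the deposited scale or in the alternative. Medians, probe set means, the filter, the trend and robust variances, the choice of arrays and the replicate block reversed no result, and neither did leaving out 1 array. Centring on the reference genes reversed 13: at 340 h against 24 h it gave TIF4631 0.23, TIF4632 0.95, PAB1 0.49, NIP1 0.0231, PRT1 0.0227, SUI1 0.92, FUN12 0.32, GCD1 0.47, GCD2 0.25, GCD7 1.05, CAM1 0.34 and YEF3 0.92, and at 340 h against 120 h it gave TIF3 0.00645. Of these 13, TIF4632, SUI1, GCD7 and YEF3 passed only with centring, and the others passed only on the deposited scale. So none of the 13 passed in both directions. Among the other translation genes centring gave HYP2 0.33, DPH1 0.13, GCD14 0.34 and EAP1 0.29 at 340 h against 24 h, the alternatives for EAP1 being chosen after seeing the data. It also weakened 46 results and strengthened 9. The cause was not tested.

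The number of genes past the threshold with reference-gene centring was 3 (48 h against 24 h), 9 (60 h against 24 h), 14 (340 h against 24 h), 0 (60 h against 48 h), 0 (120 h against 60 h) and 5 (340 h against 120 h). With only the 6 arrays of both times it was 5 (48 h against 24 h), 4 (60 h against 48 h) and 5 (120 h against 60 h). With probe set means it was 0 (60 h against 48 h) and 4 (120 h against 60 h), and CAM1 over TEF4 became 1.70 at 60 h and 2.05 at 340 h. At 120 h against 60 h the filter gave 5, median centring 4 and the replicate block 6. The cause was not tested.

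Leaving out 1 array gave 4 to 12 genes at 48 h, 15 to 21 at 60 h, 18 to 24 at 120 h and 22 to 26 at 340 h against 24 h. For the steps it gave 1 to 2 (60 h against 48 h), 0 to 3 (120 h against 60 h), 10 to 12 (340 h against 120 h), 26 to 28 (12 h against 1 h) and 0 (24 h against 12 h). At 340 h against 24 h, 22 of 25 calls held in all 6 fits, the exceptions being PAB1, GCD1 and TIF4631. Where the numbers do not pair the arrays, the block gave 13, 18, 22 and 26 genes at 48, 60, 120 and 340 h against 24 h, 2 at 60 h against 48 h, 29 at 12 h against 1 h and 0 at 24 h against 12 h. The shares of all genes that passed in these alternative fits are not given here. Depth does not apply to arrays, and 3 arrays per time limit the precision.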
